A study of Caenorhabditis elegans with 2 samples.

Results

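The 8 genes described here encode the cytosolic elongation machinery of the *Caenorhabditis elegans* ribosome: *eef-1A.1* and *eef-1A.2*, *eef-1B.1* and *eef-1B.2*, *eef-1G*, *eef-2*, *iff-1* and *iff-2*. They were taken by name from the Ensembl annotation of WBcel235, the assembly called ce11 in the deposited files, and are 8 of 19973 nuclear protein-coding genes. The data are chromatin immunoprecipitation and sequencing (ChIP-seq) of the MADF-2 protein, which carries a MADF domain, a DNA-binding fold. Strain OP587, genotype unc-119(tm4063) III; wgIs587, carries an integrated transgene whose MADF-2 product ends in a GFP-FLAG tag, and the antibody recognised GFP. Whole late embryos of mixed sex, 3 hours after synchronisation by egg bleaching, gave 2 biological replicates of 1 group. All samples share the strain, the tagged insertion and the stage, and no untagged or mutant group was analysed here. A whole embryo mixes all cell types, so binding in few cells and weak binding in many cannot be told apart.

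Elongation adds amino acids to the growing chain. The factor eEF1A, made by *eef-1A.1* (also known as *eft-3*) and *eef-1A.2*, delivers charged tRNA to the ribosome as a complex with GTP. The eEF1B complex, which includes the products of *eef-1B.1*, *eef-1B.2* and *eef-1G*, recharges eEF1A with GTP. The product of *eef-2* moves tRNA and messenger RNA through the ribosome, and *iff-1* and *iff-2* encode eIF5A, a protein named as an initiation factor that also helps the ribosome through difficult peptide bonds. The *eef-1A.1* promoter is a common driver of transgenes in many worm tissues, and *iff-1* is known for its role in the germline, *iff-2* for one in somatic cells.

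The sequences under the strongest promoter summits of the paralogous pairs are shown because the eEF1A genes both had reproducible regions while the eIF5A genes differed. Each runs 5′ to 3′ on the strand of the gene, is centred where possible on the summit of the pooled list (up to 100 bases to either side), and stops short of the annotated 5′ end and of coding neighbours' exons. Bases come from the RefSeq assembly WBcel235. Capitals mark the words GAGAGA and TATAAA, searched on either strand, and the word GTCTC or its complement GAGAC, chosen after these windows were read.
eef-1A.1: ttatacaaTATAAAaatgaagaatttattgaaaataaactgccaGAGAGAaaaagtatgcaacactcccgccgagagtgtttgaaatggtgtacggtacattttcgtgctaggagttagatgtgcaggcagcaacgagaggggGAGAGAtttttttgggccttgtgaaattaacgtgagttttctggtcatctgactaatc
eef-1A.2: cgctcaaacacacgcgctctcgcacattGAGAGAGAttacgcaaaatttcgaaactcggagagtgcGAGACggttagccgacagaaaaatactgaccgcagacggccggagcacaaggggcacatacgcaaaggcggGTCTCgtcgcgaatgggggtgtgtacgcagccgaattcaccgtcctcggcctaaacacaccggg
iff-2: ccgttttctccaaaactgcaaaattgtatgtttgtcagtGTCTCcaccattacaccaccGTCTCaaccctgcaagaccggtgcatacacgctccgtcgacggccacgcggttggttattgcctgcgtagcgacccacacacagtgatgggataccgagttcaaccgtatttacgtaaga
iff-1: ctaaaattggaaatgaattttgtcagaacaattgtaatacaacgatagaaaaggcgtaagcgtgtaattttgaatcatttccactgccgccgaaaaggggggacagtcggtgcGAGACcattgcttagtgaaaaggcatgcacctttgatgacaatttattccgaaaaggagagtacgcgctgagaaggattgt
The first is chrIII:6972018-6972218 (minus strand), the second chrX:7823229-7823429 (plus), the next chrII:8561368-8561546 (minus) and the last chrIII:9747278-9747471 (minus). The summit follows 100 printed bases in each except *iff-1*, where it is base 94. Annotated exons of noncoding genes cover 68 of the printed bases of *eef-1A.1* and 45 of those of *eef-1A.2*.

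MADF-2 was recovered at the promoters of 4 of the 8 genes in the authors' optimal list, the 772 regions that passed their reproducibility filter. These were *eef-1A.1*, *eef-1A.2*, *eef-2* and *iff-2*. The promoter window covered 1000 bp before and 200 bp after the annotated 5′ end, and a region counted where its summit lay inside. Across all protein-coding genes 2.81% had an optimal summit in this window. The optimal summits of *eef-1A.1*, *eef-2* and *iff-2* also lay in the window of a divergent neighbour. That of *eef-1A.1* was nearer to the neighbour than to *eef-1A.1*. A pooled summit, from the list of 30000 candidate regions and background called on both replicates together, lay in the window of 7 of the 8, against 35.7% of all protein-coding genes. Among genes with a pooled summit, 4 of these 7 were optimal, against 7.89% of all such genes. The median of the strongest pooled signal value was 87.9 over the 7 genes and 28.3 over all 7127 genes with a pooled summit. The signal value is the authors' value from the peak caller, of unstated scale, so ranks within a list are given beside it. The optimal regions were also the 772 strongest pooled ones, so the optimal counts and the median rest on 1 ranking. The genes were chosen with earlier results of these data known, and the shares of all genes carry no such choice. No test was made, since 2 replicates of 1 group allow none between conditions and the genes share their libraries.

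**Figure D1:**
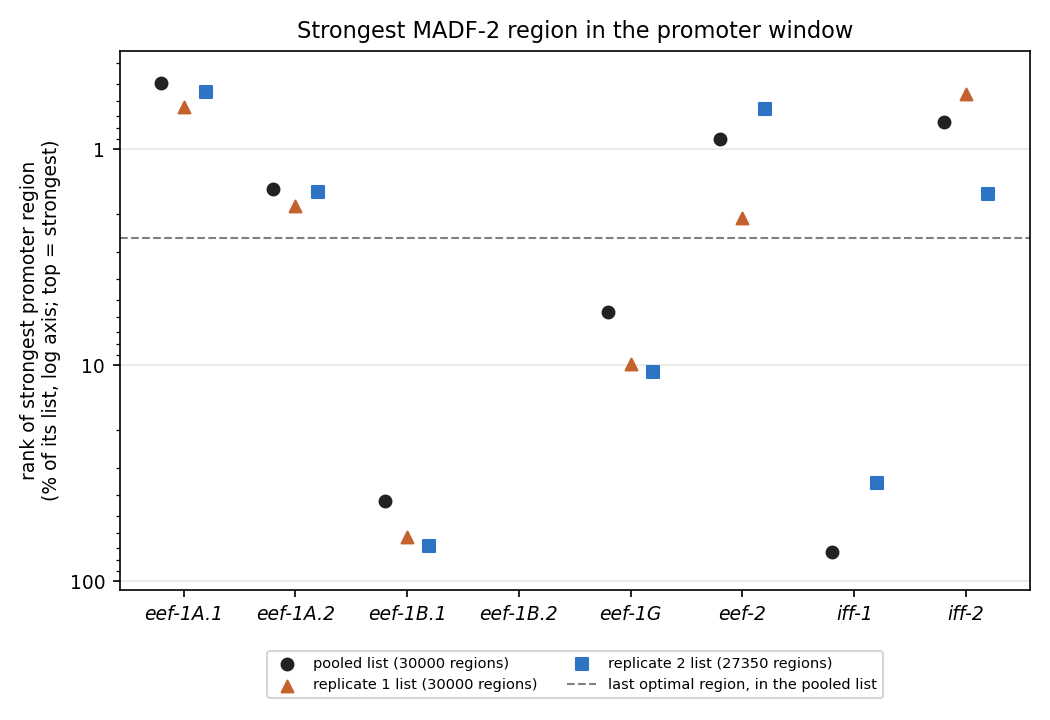
Rank of the strongest region in the promoter window of each gene, as a percentage of its list (log axis, strongest at the top), in the pooled list and in each replicate list; the dashed line is the last of the 772 optimal regions. *eef-1A.1*, *eef-1A.2*, *eef-2* and *iff-2* sit above the line with all their symbols, *eef-1G*, *eef-1B.1* and *iff-1* lie below it, and *eef-1B.2* has no symbol.

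The replicates placed the same 4 genes at the top. Among the 772 strongest regions of replicate 1 were summits in 4 of the 8 windows, against 2.49% of all protein-coding genes, and among the 772 strongest of replicate 2 summits in 4 of the 8, against 2.94%. In both cases the genes were *eef-1A.1*, *eef-1A.2*, *eef-2* and *iff-2*. The pooled list and the filter use the reads of both replicates, so the lists of single replicates are the only ones made apart from each other, and they share a control alignment. A summit in both replicate lists occurred in 6 of the 8 windows, against 19.9% of all protein-coding genes. For this count the summits could have any strength and did not need to lie at the same place in the window. The strongest 3000 of the 30000 pooled regions reached 5 of the 8 windows, those 4 and *eef-1G*, against 7.79%.

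In the pooled list the strongest elongation factor promoter was that of *eef-1A.1* (WBGene00001168, chromosome III, 6970026 to 6971712, minus strand). Its region at 6971920 to 6972315 had a pooled signal value of 146 and rank 148 of 30000. The signal value was 72.7 in replicate 1 (rank 192 of 30000) and 72.1 in replicate 2 (rank 148 of 27350), so the replicates placed it alike. By strongest promoter summit, the gene was 89th of 7127. The pooled summit lay 406 bp upstream of the 5′ end and 438 bp upstream of the start codon. It was nearer to another gene: *rfc-4*, which encodes a subunit of the clamp loader of DNA replication, is divergent, and the same summit lay 135 bp upstream of its 5′ end. The microRNA gene *mir-5549* is within 300 bp, and the summit of replicate 1, 41 bp from that of replicate 2, lay inside it. By the nearest 5′ end this region belongs to *rfc-4* and not to *eef-1A.1*.

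Its paralogue *eef-1A.2* (WBGene00001169, chromosome X, 7823654 to 7825769, plus strand) had a region at 7823131 to 7823526 with a pooled signal value of 87.9, rank 460. The signal value was 46.1 in replicate 1 (rank 548) and 46.0 in replicate 2 (rank 430). Both replicates thus ranked it below *eef-1A.1*. The pooled summit preceded the 5′ end by 325 bp, and a further pooled summit at 124 bp upstream had a signal value of 64.8 (rank 924), outside the optimal list. Replicate 1 also split the signal, at 350 and 136 bp upstream, whereas replicate 2 had 1 summit at 243 bp upstream. The summits at 136 bp in replicate 1 and at 243 bp in replicate 2 lay inside the noncoding RNA gene *R03G5.8*. No other protein-coding gene had its window here. The coding sequences of the eEF1A genes were 94.0% identical over 1389 aligned bases. Of the 36-base words of the whole gene, 94.2% in *eef-1A.1* and 95.4% in *eef-1A.2* occurred once in the genome. Their promoter regions were not copies: all 361 words of 36 bases in either region occurred once in the genome.

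The exchange factor genes were weaker. *eef-1G* (WBGene00008920, chromosome V, 10965719 to 10967922, plus strand) had a pooled signal value of 51.1 at rank 1704, below the weakest optimal region (69.6). In replicate 1 its signal value was 27.4 (rank 2966) and in replicate 2 it was 23.3 (rank 2937). The summits were 15 bp apart, and the pooled one fell on the annotated first base of the gene, 180 bp upstream of the divergent gene *ctf-4*, named for a replication factor. *eef-1B.1* (WBGene00018846, chromosome III, 7972382 to 7973386, minus strand) had a pooled signal value of 26.7 at rank 12722, with 14.7 in replicate 1 (rank 18690) and 12.9 in replicate 2 (rank 18860). These values are close to the list medians of 25.0, 16.2 and 14.6, so the region stood near the middle of each list or lower. The pooled summit lay 13 bp inside the gene, inside the noncoding RNA gene *F54H12.9*, and 344 bp upstream of *aco-2*, which encodes mitochondrial aconitase. The replicate summits were 124 bp apart, at 15 bp inside the gene in replicate 1 and 139 bp in replicate 2.

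*eef-1B.2* (WBGene00012768, chromosome IV, 15037331 to 15039551, plus strand) had no summit in its window in any of the lists. That says only that none was listed there. Past its 3′ end a pooled summit at 15039702 had a signal value of 69.5 and rank 780, just outside the optimal list, whose last region had 69.6. Replicate 1 gave 28.5 (rank 2568) and replicate 2 gave 36.8 (rank 713) at this place. The pooled summit, 151 bp past the end, lay inside *hrpu-1*, named for an RNA-binding hnRNP protein. That gene starts 65 bp past the end on the same strand, so the summit falls in its promoter window. The pooled summit and the replicate summits given here also lay inside the noncoding RNA gene *Y41E3.459*. Neither gene of the *eef-1B* pair had an optimal promoter region.

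*eef-2* (WBGene00001167, chromosome I, 9163531 to 9166952, plus strand) had a pooled signal value of 112 at rank 268. Replicate 1 gave 44.1 (rank 624) and replicate 2 gave 67.7 (rank 178), so the rank was higher in replicate 2. The pooled summit lay 5 bp upstream of the 5′ end and 128 bp upstream of the start codon, and the replicate summits were 13 bp apart. Here the region was nearest to the elongation factor gene: the divergent gene *clsp-1*, named for the checkpoint protein claspin, had the summit 260 bp upstream.

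The genes of the eIF5A pair differed in rank. *iff-2* (WBGene00002065, chromosome II, 8559375 to 8561367, minus strand) had a region at 8561248 to 8561643 with a pooled signal value of 124 and rank 225. Replicate 1 gave 77.0 (rank 166) and replicate 2 gave 45.5 (rank 439), both within the strongest 772. The pooled summit lay 79 bp upstream of the 5′ end, with the replicate summits 10 bp apart, and 491 bp upstream of the start codon. The other gene whose window held it, *F54C9.14*, was 856 bp away. *iff-1* (WBGene00002064, chromosome III, 9745862 to 9747193, minus strand) had a pooled signal value of 21.0 at rank 21890, below the list median. Replicate 2 listed 16.5 (rank 9653) at 63 bp upstream, and replicate 1 listed no summit in the window. The pooled summit, 185 bp upstream, was nearer to the divergent gene *cdk-1*, the cell cycle kinase, at 94 bp. Just beyond the window, 1028 bp upstream and inside *cdk-1*, replicate 1 had a summit of signal value 31.6 (rank 1722). The pooled list had 28.4 there (rank 10727), and replicate 2 listed none there. The eIF5A coding sequences were 65.4% identical over the alignment, and all 36-base words of both promoter regions occurred once in the genome.

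**Figure D2:**
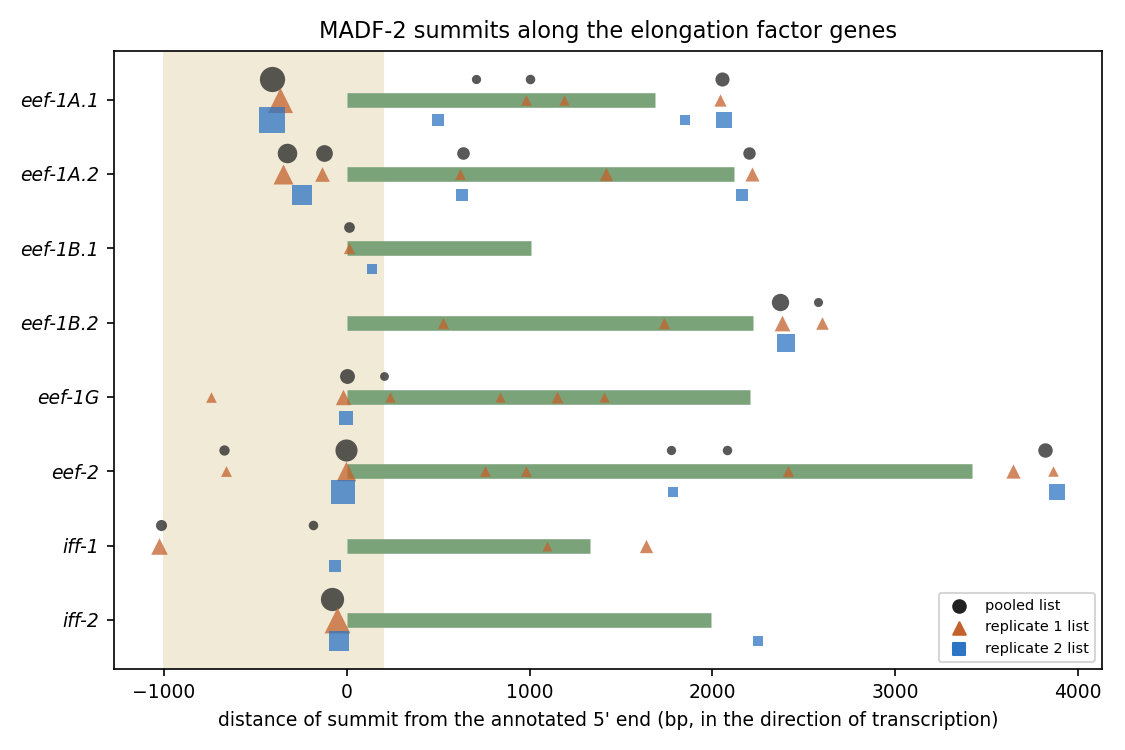
Summits of the pooled list (circles, upper), replicate 1 (triangles, middle) and replicate 2 (squares, lower) along each gene, by distance in bp from the annotated 5′ end in the direction of transcription; green bars are the genes, shading is the promoter window, and symbol area is proportional to the signal value, doubled for the replicate lists. The largest symbols lie at or upstream of the 5′ ends of *eef-1A.1*, *eef-1A.2*, *eef-2* and *iff-2*, and for *eef-1B.2* they lie past the 3′ end.

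The order among the top 4 was not fixed. Pooled, it ran *eef-1A.1*, *iff-2*, *eef-2* and *eef-1A.2*. Replicate 1 put *iff-2* first and *eef-2* last (ranks 166 and 624), and replicate 2 put *eef-1A.1* first and *iff-2* last (ranks 148 and 439). Each replicate ranked all 4 above *eef-1G*, and *eef-1G* above *eef-1B.1*. The place of *iff-1* against *eef-1B.1* changed between the pooled list, where it was lower, and replicate 2, where it was higher.

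**Figure D3:**
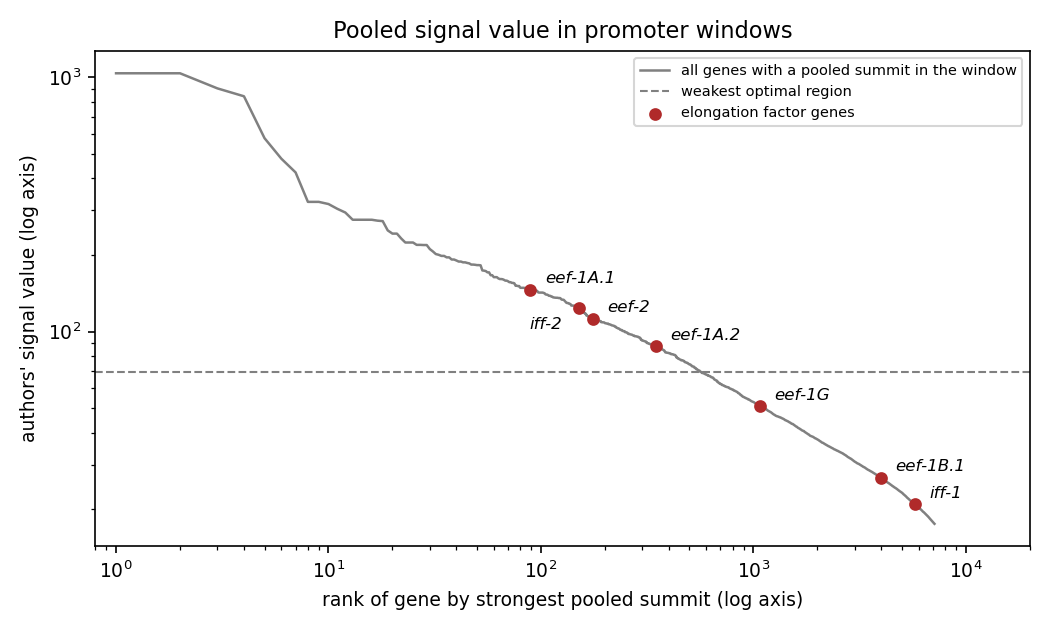
Strongest pooled signal value in the promoter window of each gene (log axis) against the rank of the gene among 7127 genes (log axis); the line is all genes, red points are the 7 elongation factor genes with a pooled summit, and the dashed line is the weakest optimal region at 69.6. The points of *eef-1A.1*, *iff-2*, *eef-2* and *eef-1A.2* lie above it at gene ranks 89, 151, 175 and 348, and *eef-1G* at 1073, *eef-1B.1* at 3986 and *iff-1* at 5744 lie below.

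Inside the genes and past their ends the signal was lower than at the strong promoters. Past the window, the gene bodies held 6 pooled summits in 4 genes, with signal values from 18.0 to 36.7, none of them optimal. The highest was in *eef-1A.2*, 638 bp from the 5′ end, where replicate 1 had 13.7 at 618 bp and replicate 2 had 18.0 at 633 bp. Replicate 1 had a stronger summit elsewhere in this gene body, 20.7 at 1419 bp (rank 7704), which neither of the other lists held. In the 500 bp past the 3′ end, 3 of the 8 genes had a pooled summit among the strongest 3000 regions, against 2.05% of all protein-coding genes: *eef-1A.1*, *eef-1B.2* and *eef-2*. This flank was examined after the values were seen. At *eef-1A.1* the summit was 366 bp past the end, inside the gene *F31E3.12*, with a pooled signal value of 46.0, and the replicates differed (17.4, rank 12549, in replicate 1 and 28.2, rank 1502, in replicate 2). At *eef-2* it was 399 bp past the end, outside annotated genes, with a pooled signal value of 48.4. Replicate 1 had 23.5 at 223 bp past the end (rank 5162), and replicate 2 had 28.9 at 465 bp (rank 1374). Nearer to the pooled summit, at 443 bp, replicate 1 had only 12.7 (rank 24324), so the replicates differed here too.

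The windows of the strong promoters did not share the searched words throughout. In windows of 100 bases to either side of the pooled summit, GAGAGA or its complement was found in *eef-1A.1* (starting at bases 45 and 144 of the printed sequence) and in *eef-1A.2* (bases 29 and 31, overlapping), and in none of the other 5 genes with a pooled summit. It was in 38.5% of all 772 optimal windows and in 19.1% of all 30000 pooled windows, which include the optimal ones. TATAAA occurred in *eef-1A.1* alone (12.2% of pooled windows), and TTTCAG, the letters of a common worm splice acceptor, in *eef-1B.1* and *eef-1G* (27.2% of pooled and 12.6% of optimal windows). CACGTG, in 4.52% of pooled windows, and CCGCCC, in 7%, were in no member's window. The added word GTCTC was found in *eef-1A.2*, *iff-2*, *iff-1* and *eef-1B.1*, and in 49.5% of optimal and 30.5% of pooled windows. The GC content of the windows ran from 39.3% in *eef-1A.1* to 57.2% in *eef-1A.2*, around medians of 47.3% for optimal and 42.3% for pooled windows. These matches describe letters in the windows and not sites.

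Other factors of translation gave optimal promoter summits at 6 of 52 genes, against 2.81% of all protein-coding genes. At that share a list of a few genes would often hold none, so nothing is read from the lists below without an optimal summit. Of 33 initiation factor genes 5 had one: *eif-3.C* (pooled signal value 146, 217 bp upstream), *eif-3.E* (99.4, 238 bp), *eif-3.D* (93.2, 255 bp) and *eif-3.B* (89.7, 196 bp), all subunits of the large scaffold eIF3, and *drr-2* (81.0, 139 bp), related to eIF4H. The eIF3 subunit genes *eif-3.F* to *eif-3.K* had pooled signal values from 17.6 (*eif-3.K*) to 51.7 (*eif-3.I*), none optimal, and *eif-3.L* had no pooled summit. Of 3 genes of termination and ribosome recycling, *erfa-3*, the release factor GTPase, had an optimal summit (116, 304 bp upstream). None of the 4 genes of mitochondrial elongation was optimal, the strongest being *gfm-1*, the mitochondrial counterpart of *eef-2* (48.8). Among 9 genes of enzymes that modify or regulate elongation factors none was optimal. The strongest was *dph-6*, of the diphthamide pathway that modifies eEF2 (35.0), *efk-1*, the eEF2 kinase, had 26.8, and *dhps-1* and *dohh-1*, the enzymes that make the hypusine of eIF5A, had no pooled summit in the window. Of 3 further ribosome-associated factors none was optimal, and *abcf-3* had the highest value (62.3). The median of the strongest pooled signal value over the 37 of these genes with a pooled summit was 34.5, against 28.3 over all genes with one. Of the 6 optimal summits, 4 also lay in the window of a neighbour. That of *eif-3.D* was nearer to its neighbour *R08D7.4* (59 bp) than to *eif-3.D* (255 bp). Those of *eif-3.E*, *drr-2* and *erfa-3* were nearer to the factor gene than to *B0511.17*, *set-16* and *math-33*.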

How the data were processed

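Regions came from 4 ce11 lists: optimal (772 regions), pooled (30000), replicate 1 (30000) and replicate 2 (27350). Per the deposited file records, single-replicate and pooled lists were made from alignments with a control alignment, and the optimal list from those lists. The sources used here name no peak caller or settings, and the depth is unknown. The authors deposited a signal value with every region, and ranks were computed from it within each list. The deposited −log10 q-value of the authors reached a ceiling of 3.03 in 536 optimal regions and was not used for ranking. In the deposited lists the optimal regions were the 772 strongest pooled ones. Summits were the region start plus the deposited offset, and positions are 1-based. Genes were those of Ensembl release 115 for WBcel235, and no region on a nuclear chromosome passed a chromosome end of that assembly. Mitochondrial regions were not part of this check. The ce10 lists were not used. Trans-splicing in worms makes many annotated 5′ ends approximate.

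Named genes were all 8 members, genes that share their summits, and, of each list of other factors, those with an optimal summit or else the strongest. Further named factors were chosen after their values were seen. The members and lists were chosen with earlier results of these data known. The 52 other factors are the genes found under 69 listed symbols, some of them older synonyms. Counts were read against all 19973 nuclear protein-coding genes with no test. Identity was computed by global alignment of the longest coding sequences (Biopython 1.88), and the word and window searches ran in Python 3.11.15. The window search was tested on simulated data.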

Additional observations from a re-analysis of the deposited data

How the results depend on the processing

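The number of genes with an optimal summit stayed at 4 with windows of 500 bp upstream to 100 bp downstream and of 2000 bp upstream to 500 bp downstream, with the 5′ ends of all transcripts, with the start codon as reference and with region overlap in place of summit. It was 4 with either replicate list used alone, cut to its strongest 772 regions. It was 3 when each summit was given to the nearest 5′ end, which removed *eef-1A.1*, and 3 in the stronger part of the optimal list, which removed *eef-1A.2*. The number with any pooled summit ranged from 5 to 7, the number with a summit in both replicate lists from 5 to 7, and the number among the strongest regions from 4 to 5. Of 40 recomputed signal values, 38 were unchanged. The others were those of *iff-1*, which rose to 28.4 with the wider window or with overlap, as the region inside *cdk-1* then counted. With the start codon as reference, distances moved by more than 1 SD of the replicate summits in 5 of the 6 genes with a summit in both replicates, *iff-1* having no such SD, and that of *eef-1B.1* changed from 13 bp downstream to −103. In windows of 50 bases to either side the pairs of a gene and a searched word fell from 5 to 2 without the added word GTCTC, and from 9 to 6 with it. Values of 1 replicate cannot be set against the pooled values, whose scale differs.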

Other observations

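The promoters of these genes were often divergent. Of the 8 genes 6 had the 5′ end of an opposite-strand protein-coding gene within 1000 bp upstream, against 17.7% of all protein-coding genes. The distance between the 5′ ends was 541 bp for *eef-1A.1* and *rfc-4*, 331 bp for *eef-1B.1* and *aco-2*, 180 bp for *eef-1G* and *ctf-4*, 265 bp for *eef-2* and *clsp-1*, 279 bp for *iff-1* and *cdk-1*, and 935 bp for *iff-2* and *F54C9.14*. Of these partners, *rfc-4*, *ctf-4*, *clsp-1* and *cdk-1* are named for proteins of DNA replication or the cell cycle. These names were noticed after the data were seen. The share of such names among all genes or all divergent partners was not computed, so nothing is read from them. Of the 6 genes with a divergent partner, *eef-1A.1*, *eef-2* and *iff-2* had an optimal summit, and *eef-1B.1*, *eef-1G* and *iff-1* did not. Of the genes without one, *eef-1A.2* had an optimal summit and *eef-1B.2* did not. Whether a divergent partner bears on the summits was not tested. The summit of a shared promoter cannot be given to either gene from these lists, and which gene it concerns was not tested.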
